A study of Drosophila melanogaster with 14 samples.

Results

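The libraries compared here are the controls of a pair of experiments on type II neural stem cells from the larval brain of Drosophila melanogaster. They are the 3 libraries labelled GAF control and the 2 libraries labelled Osa control, chosen by their titles from the table of raw counts, 5 of the 14 libraries of the series and 5 of its 7 controls. The series addresses the functions of GAF, HDAC1 and Osa in developing neural cells, and each of these proteins was perturbed in an experiment with its own controls. The sample labels give the Osa perturbation as an overexpression, whereas the series' design text names a knockdown. Setting the controls beside each other asks what is constant, and what differs, between unperturbed libraries of the same labelled cells.

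All 5 libraries carry the same labels: wild-type genotype, larval brain, type II neural stem cell. Polyadenylated RNA from 1k to 2k cells, per the labels, was amplified with the Discover-sc WTA Kit V2 before a library was made with the TruePrep kit, which uses a transposase and does not mark strand. What driver or marker isolated the cells, and the control cross, larval age and sex, was not given in the sources used here. The labels do not say that the libraries of a set came from separate animals, so every p reflects library-to-library spread, which may be technical. Set and experiment coincide, so that a difference between the sets and a difference between the experiments cannot be told apart.

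Type II neuroblasts are large stem cells that divide asymmetrically to renew themselves and to bud off intermediate neural progenitors. Each progenitor divides several times in turn, and its daughters, the ganglion mother cells, divide once more into neurons or glia. Over larval life neuroblasts pass through a temporal series in which early RNA-binding proteins such as Imp give way to late factors such as Syp and the ecdysone receptor.

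The GAF controls held 43956391, 51505597 and 47200470 counts and the Osa controls 31788351 and 34062172, so the Osa set was both shallower and smaller. Levels are given as CPM, counts scaled to a common library size, adjusted between the 5 libraries by the trimmed mean of M-values (TMM). They are listed in the order GAF control 1, 2 and 3, then Osa control 1 and 2. Differences are the log2 level in the Osa controls minus that in the GAF controls with a standard error, so a positive value is higher in the Osa controls and a negative value higher in the GAF controls. A gene was called where the edgeR quasi-likelihood test gave a Benjamini-Hochberg adjusted p under 0.05 over the 9390 genes tested. A gene was termed constant where the 95% interval of its difference lay within 1 on the log2 scale, that is within 2-fold, in either direction.

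Of the 9390 genes tested, 3786 (40.3%) were called, 1931 (20.6%) higher in the Osa controls and 1855 (19.8%) higher in the GAF controls. The 2 sets did not overlap in 6075 genes (64.7%), and the median difference over all genes was 0.02. About as many genes, 3790 (40.4%), were constant. Of these, 761 (8.1% of the tested genes) were also called, with a difference that was small but larger than the spread. The other 2575 (27.4%) were neither called nor constant. Larger differences lay mostly on the Osa side, since 1218 called genes (13%) were at least 2-fold higher in the Osa controls and 607 (6.46%) at least 2-fold higher in the GAF controls. At 8-fold or more the counts were 642 (6.84%) and 98 (1.04%). The division between the directions depends on the scaling: with library size alone, 3865 genes were called and 77.2% of them were higher in the Osa controls, and the median of all genes then moved by 0.34 on the log2 scale. With all 14 libraries in 1 fit 2701 genes were called, 61.6% of them higher in the Osa controls. Without Osa control 1 the count was 2000 and without Osa control 2 it was 1963, the remaining Osa library then being assumed to vary like the GAF controls.

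Libraries of a set were much closer to each other than to the other set. Across the tested genes, the correlation of log2 levels was 0.986 to 0.991 within the GAF controls, 0.99 within the Osa controls and 0.925 to 0.942 between the sets. These are correlations across genes, which are not independent replicates. The share of genes more than 2-fold apart was 2.4% to 4.54% for GAF pairs, 2.58% for the Osa pair and 19.2% to 25.9% for pairs across the sets.

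**Figure D1:**
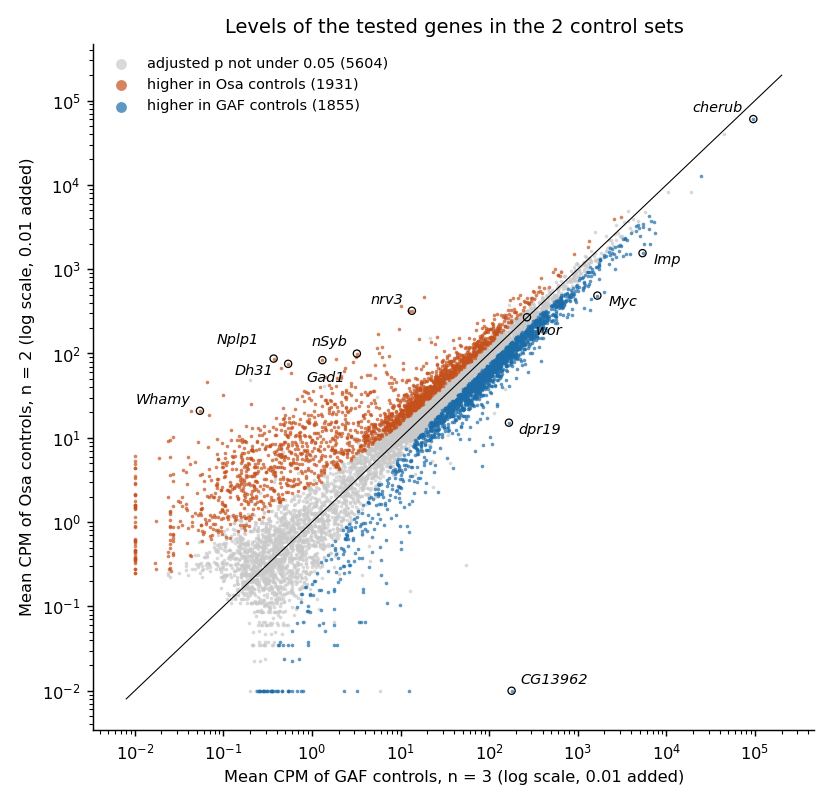
Mean CPM of each of the 9390 tested genes in the GAF controls (x axis, 3 libraries) and the Osa controls (y axis, 2 libraries), on log axes with a small constant added so that genes at 0 can be drawn; colours mark genes called in each direction, grey the others, and circles genes named in the text. Genes far from the diagonal lie mostly above it, at low levels in the GAF controls, where 642 called genes were at least 8-fold higher in the Osa controls against 98 the other way.

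Most genes that mark the stem cell were constant, at a share near that of all genes at such levels. Of 22 self-renewal genes tested, 16 were constant (of all genes over 10 CPM, 59.7% to 72.1% were, depending on the level), 2 were called higher in the Osa controls and 4 higher in the GAF controls, with a median of −0.08. With library size alone the counts were 6 and 2, in the fit of all 14 libraries 1 and 2, without GAF control 2 they were 2 and 2 and without Osa control 2 they were 1 and 2. Of 8 type II identity genes 5 were constant and 1 was called in each direction, with a median of −0.12. The 7 type II neuroblast markers summed to 1152 to 1282 CPM in the GAF controls and 1083 to 1163 CPM in the Osa controls. Their summed level was thus similar, although klu, btd and mira among them were called. The definition of this cell type also asked for a low ase, which was at 31.8 to 57.5 CPM, near the level of dpn. The sum alone therefore does not establish type II identity.

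Among the individual factors, dpn, the Hes-type factor that keeps neuroblasts self-renewing, was at 44.3, 56 and 50.1 CPM in the GAF controls and at 43.1 and 51.7 CPM in the Osa controls. The sets overlapped, and the gene was constant (−0.08, interval −0.45 to 0.29). Other genes overlap 59.3% of the exonic bases of dpn. The Snail-family factor gene wor was constant (0.01, interval −0.37 to 0.40) at 207, 283 and 312 CPM in the GAF controls and at 269 and 269.9 CPM in the Osa controls, as were pnt (−0.30, interval −0.64 to 0.04), the Ets factor that sets type II identity, and the Notch receptor gene N (−0.11, interval −0.48 to 0.26). The nuclear receptor gene tll (−0.30, interval −0.71 to 0.10) and the Grainyhead gene grh (−0.28, interval −0.63 to 0.08) were constant too. Proneural ase, which type II neuroblasts are known to keep off and their progenitors switch on, was at 31.8, 35.7 and 48.9 CPM in the GAF controls and at 57.5 and 39.8 CPM in the Osa controls and was constant (0.33, interval −0.18 to 0.83).

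The called members of these lists went both ways. The growth regulator Myc was at 2001, 1619.6 and 1367 CPM in the GAF controls and at 488 and 484 CPM in the Osa controls, 3.42-fold higher in the GAF controls (−1.77 ± 0.17, edgeR adjusted p = 6.2e-05). Every GAF library lay above both Osa libraries. Other genes overlap 61.2% of the exonic bases of Myc, and how shared reads were counted was not given in the sources used here. The zinc-finger factor gene klu was at 353, 293 and 277 CPM in the GAF controls and at 171 and 179 CPM in the Osa controls (−0.81 ± 0.14, edgeR adjusted p = 0.00185), also without overlap. Sp-family btd, a type II identity factor, was lower in the Osa controls (−0.88 ± 0.21, edgeR adjusted p = 0.0103), a call lost with library size alone, in the fit of all 14 libraries and without Osa control 1. Higher in the Osa controls were 2 genes of asymmetric division, the process that passes fate determinants to the budding daughter. The adaptor gene mira was at 174, 115 and 139.6 CPM in the GAF controls and at 249 and 297 CPM in the Osa controls (0.93 ± 0.18, edgeR adjusted p = 0.00243), with no overlap. The translational repressor gene brat was higher in the Osa controls as well (0.76 ± 0.17, edgeR adjusted p = 0.00535), a call lost in the fit of all 14 libraries and without Osa control 2. Of the type II identity list, the zinc-finger gene ab was higher in the Osa controls by 2.54 ± 0.34 (edgeR adjusted p = 0.000361).

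Genes of intermediate progenitors were higher in the Osa controls. Of 15 tested, 9 were called, all of them higher in the Osa controls, and 3 were constant, with a median difference of 1.56 against 0.02 over all genes. The zinc-finger gene ham, which limits progenitor divisions, was at 3.77, 2.5 and 3.11 CPM in the GAF controls and at 29.3 and 27.6 CPM in the Osa controls (3.19 ± 0.23, edgeR adjusted p = 1.04e-05). All 3 GAF libraries were low and both Osa libraries high, with a gap of several-fold between them. The Zic-family gene opa, which moves progenitors from the first to the second temporal window, was at 3.3, 2.23 and 5.15 CPM in the GAF controls and at 30.6 and 34.8 CPM in the Osa controls (3.20 ± 0.31, edgeR adjusted p = 7.56e-05). Factors of the progenitor's own temporal sequence were among the called genes. Its early factor D was higher in the Osa controls (1.56 ± 0.22, edgeR adjusted p = 0.0005). Its late factor ey was at 2.11, 2.19 and 2.65 CPM in the GAF controls and at 15.5 and 17.6 CPM in the Osa controls (2.83 ± 0.26, edgeR adjusted p = 3.66e-05). Its paralog toy differed by 2.11 and scro, a late progenitor homeobox gene, by 2.63, both called. The 7 defining markers of progenitors summed to 67.5 to 106 CPM in the GAF controls and 216 to 254 CPM in the Osa controls. The early progenitor factor gene erm was not called (0.89 ± 0.41, edgeR adjusted p = 0.109).

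Newborn neuron genes were moderately higher in the Osa controls, and the list mixed called and constant members. Of 14 tested, 8 were called, all of them higher in the Osa controls, and 3 were constant, with a median of 0.78. After a correction for exonic length 5 were called, without Osa control 1 it was 5 and without Osa control 2 it was 4. Nerfin-1, the zinc-finger factor that holds neurons in the differentiated state, was at 17.8, 9.11 and 22.2 CPM in the GAF controls and at 40.9 and 36.2 CPM in the Osa controls (1.24 ± 0.32, edgeR adjusted p = 0.0134). Its call was lost when GAF control 1 or either Osa control was left out. The pan-neuronal RNA-binding protein gene elav was at 38.4, 18.9 and 27.2 CPM in the GAF controls and at 59.5 and 52.3 CPM in the Osa controls (0.99 ± 0.26, edgeR adjusted p = 0.0131), and 34.2% of its exonic bases overlap other genes. That call was lost after the length correction and without Osa control 1. A larger difference was that of mamo, a zinc-finger factor of neuronal temporal identity, at 19.8, 11.2 and 16.9 CPM in the GAF controls and at 140.2 and 155 CPM in the Osa controls (3.21 ± 0.22, edgeR adjusted p = 1.04e-05). Pros, the homeodomain switch from division to differentiation, was at 191, 86.7 and 164 CPM in the GAF controls and at 101 and 165 CPM in the Osa controls. Its libraries overlapped fully, and it was neither called nor constant (−0.14 ± 0.36, edgeR adjusted p = 0.795).

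Genes of mature neurons had the highest median of the 39 lists. Of 22 tested, 19 were called, all of them higher in the Osa controls, and 3 were constant, with a median difference of 4.23. Without either Osa library 17 were called. The gene nSyb (chromosome 3L from 1630348 to 1637752 on the minus strand, in the BDGP6 annotation as for all positions given here) encodes the vesicle SNARE of synapses. It was at 4.13, 1.6 and 3.85 CPM in the GAF controls and at 109 and 90.4 CPM in the Osa controls, 31.2-fold higher in the Osa controls (4.97 ± 0.35, edgeR adjusted p = 5.93e-05). The GAF libraries held a few CPM each, far below both Osa libraries. The calcium sensor gene of synaptic vesicles, Syt1, was at 2.96, 2.59 and 3.83 CPM in the GAF controls and at 106 and 76.9 CPM in the Osa controls (4.87 ± 0.22, edgeR adjusted p = 1.1e-06). The active-zone scaffold gene brp was at 1.66, 0.926 and 1.63 CPM in the GAF controls and at 28.8 and 26.9 CPM in the Osa controls (4.31 ± 0.28, edgeR adjusted p = 6.3e-06). Synapsin (Syn, 5.36), complexin (cpx, 4.35) and the neuronal sodium pump subunit nrv3 (4.58) were also called higher in the Osa controls. Constant members were Syx1A (0.15, interval −0.18 to 0.47) and unc-13 (−0.19, interval −0.50 to 0.11), whose products act in membrane fusion.

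More than a single transmitter type was represented. Gad1, the enzyme of GABA synthesis, was at 1.3, 1.14 and 1.45 CPM in the GAF controls and at 106 and 61.1 CPM in the Osa controls (6.01 ± 0.25, edgeR adjusted p = 1.1e-06). The vesicular glutamate transporter gene VGlut was at 1.01, 1.68 and 1.9 CPM in the GAF controls and at 54.8 and 29.6 CPM in the Osa controls (4.77 ± 0.32, edgeR adjusted p = 1.42e-05). Its acetylcholine counterpart VAChT was at 4.96, 1.14 and 3.92 CPM in the GAF controls and at 24.5 and 23.6 CPM in the Osa controls (2.85 ± 0.52, edgeR adjusted p = 0.00487). In each of these genes both Osa libraries lay above all 3 GAF libraries. In bulk RNA, more cells of a type and more RNA per cell cannot be told apart, so these values do not say whether the Osa libraries held more neurons. The GABA receptor gene Rdl differed by 4.29, a call lost without GAF control 1, without either Osa library or with no filter on low counts.

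Several neuropeptide genes were higher in the Osa controls. They were named for the size of their difference and not from a list. Dh31 (chromosome 2L from 8491868 to 8506845 on the minus strand), a diuretic hormone gene, was at 0.624, 0.463 and 0.499 CPM in the GAF controls and at 74 and 76.7 CPM in the Osa controls (7.16 ± 0.21, edgeR adjusted p = 8.99e-08). The precursor gene Nplp1 was at 0.052, 0.526 and 0.499 CPM in the GAF controls and at 108 and 66 CPM in the Osa controls (7.86 ± 0.58, edgeR adjusted p = 0.000163). AstC, allatostatin C, was at 0, 0.126 and 0.476 CPM in the GAF controls and at 14.2 and 11.9 CPM in the Osa controls (5.97 ± 0.87, edgeR adjusted p = 0.00197). The sets did not overlap in these 3 genes, as the rule that named them required. The AstC paralog AstCC was at 0.078, 0 and 0.0227 CPM in the GAF controls and at 4.66 and 36.9 CPM in the Osa controls, a difference that limma-voom did not call and that also lost its call without GAF control 1. Vmat, the vesicular monoamine transporter, was at 0, 0.0421 and 0.136 CPM in the GAF controls and at 27.5 and 9.69 CPM in the Osa controls (8.18 ± 0.91, edgeR adjusted p = 0.000147). In all of these the GAF libraries were at or near 0. Peptide hormone genes were also called the other way, namely Ptth (−2.35) and Ilp8, at 58.3, 34.1 and 35.4 CPM in the GAF controls and at 9.71 and 14.9 CPM in the Osa controls (−1.79 ± 0.28, edgeR adjusted p = 0.00139).

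**Figure D2:**
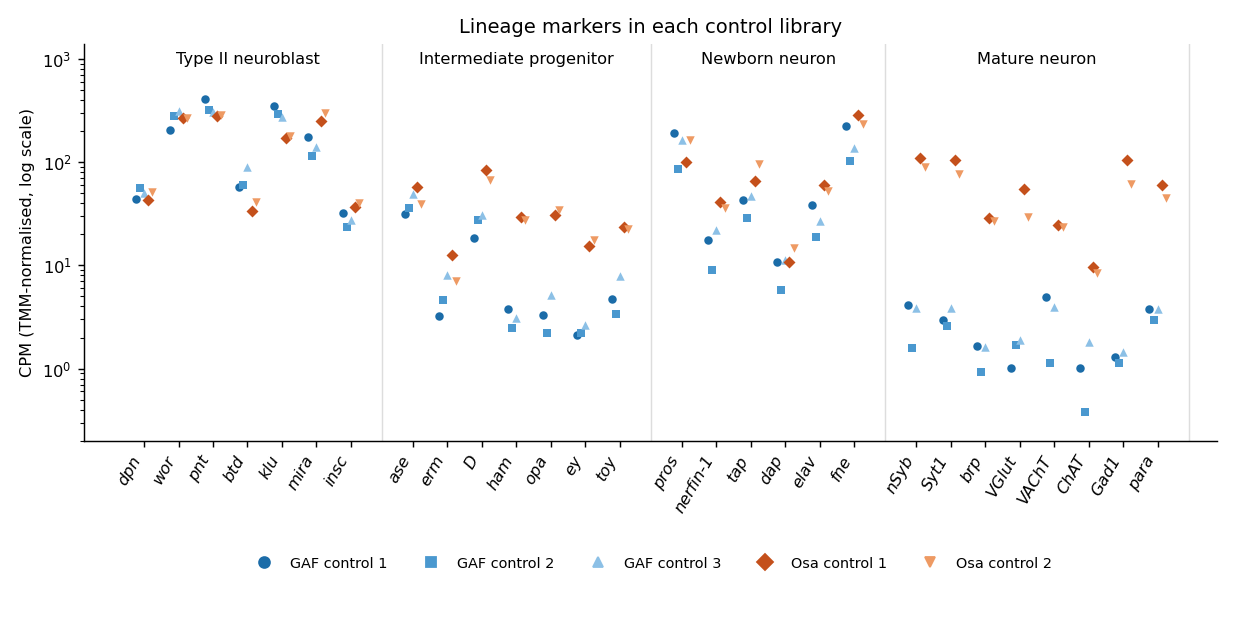
TMM-normalised CPM (y axis, log scale) of the defining markers of the type II lineage, from stem cell to mature neuron (x axis), with 1 point for each of the 3 GAF controls and 2 Osa controls. Of the neuroblast markers, dpn and wor sit at like levels in both sets, while klu and btd are lower and mira is higher in both Osa libraries. The highest GAF library for nSyb is at 4.13 CPM and the lowest Osa library at 90.4 CPM.

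Glial genes were called in both directions. Of 20 glia genes 1 was called higher in the Osa controls and 4 higher in the GAF controls, with a median of 0.06, 3 each with library size alone and 2 each in the fit of all 14 libraries. The defining glial markers summed to 659.7 to 773 CPM in the GAF controls and 346 to 453 CPM in the Osa controls. Nearly all of this was nrv2, a sodium pump subunit gene, at 634, 726 and 616 CPM in the GAF controls and at 404 and 297 CPM in the Osa controls (−0.91 ± 0.16, edgeR adjusted p = 0.00174). Among the other markers, the glial fate gene gcm was at 2.05, 0.273 and 2.88 CPM in the GAF controls and at 8.66 and 4.43 CPM in the Osa controls (1.92 ± 0.79, edgeR adjusted p = 0.0885) and wrapper, a midline glia gene, at 1.14, 1.56 and 1.41 CPM in the GAF controls and at 2.61 and 2.54 CPM in the Osa controls (0.91 ± 0.47, edgeR adjusted p = 0.143), both above the GAF range in each Osa library though not called. Gcm was called in 7 alternatives, among them DESeq2, limma-voom and without GAF control 2, and wrapper in the fit of the 7 controls. Eaat1, the next marker in abundance after nrv2, was constant (−0.14, interval −0.71 to 0.43), and the sets overlapped for moody and alrm. Of the whole glia list, Indy (−1.84 ± 0.28, edgeR adjusted p = 0.000943) and Tret1-1 (−1.44 ± 0.18, edgeR adjusted p = 0.000339) were also called higher in the GAF controls. The glial master regulator gene repo stayed at or below 0.352 CPM in every library. Blood cell markers summed to at most 1.32 CPM and muscle markers to at most 2.08 CPM in any library. Fat body markers summed to 14 to 22.6 CPM in the GAF controls and 7.68 to 9.68 CPM in the Osa controls, almost all from the larval serum protein gene Lsp1gamma, while Fbp1 had 0 counts in 4 of the 5 libraries.

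Hox genes, which pattern the ventral nerve cord more than the brain, were low in the GAF controls and higher in the Osa controls. Of 7 tested, 6 were called, all of them higher in the Osa controls, with a median of 3.54, and 3 were called when either Osa library was left out. Antp, of the thorax, was at 0.702, 2.59 and 2.61 CPM in the GAF controls and at 16.1 and 10.9 CPM in the Osa controls (2.77 ± 0.49, edgeR adjusted p = 0.00214). Ubx, expressed behind it, was at 0.156, 0.694 and 0.522 CPM in the GAF controls and at 11.3 and 5.51 CPM in the Osa controls (4.17 ± 0.57, edgeR adjusted p = 0.000515). Abdominal abd-A was at 0.26, 0 and 0.0907 CPM in the GAF controls and at 6.97 and 3.37 CPM in the Osa controls (5.49 ± 0.92, edgeR adjusted p = 0.00167). In none of these genes did the sets overlap. The share of the list called was 85.7%, against 40.3% of all genes. Genes near 0 in the GAF controls, as abd-A was, could pass the expression filter through the Osa libraries alone. The direction of such members was therefore fixed by the filter. Where a mean of at least 5 CPM was required, 1 Hox gene was tested, and it was called higher in the Osa controls. Other genes overlap 50.1% of the exonic bases of Antp. The 4 ventral cord markers summed to 1.12 to 3.68 CPM in the GAF controls and 21.8 to 36.3 CPM in the Osa controls. Of 14 optic lobe and disc genes 6 (42.9%) were called, near the 40.3% of all genes. All 6 were higher in the Osa controls, and the list had a median of 0.8. The eye gene dac was among the called genes (3.15 ± 0.44, edgeR adjusted p = 0.00046). The part that neurons, ventral cord cells or progenitors had in any other difference between the sets was not tested.

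**Figure D3:**
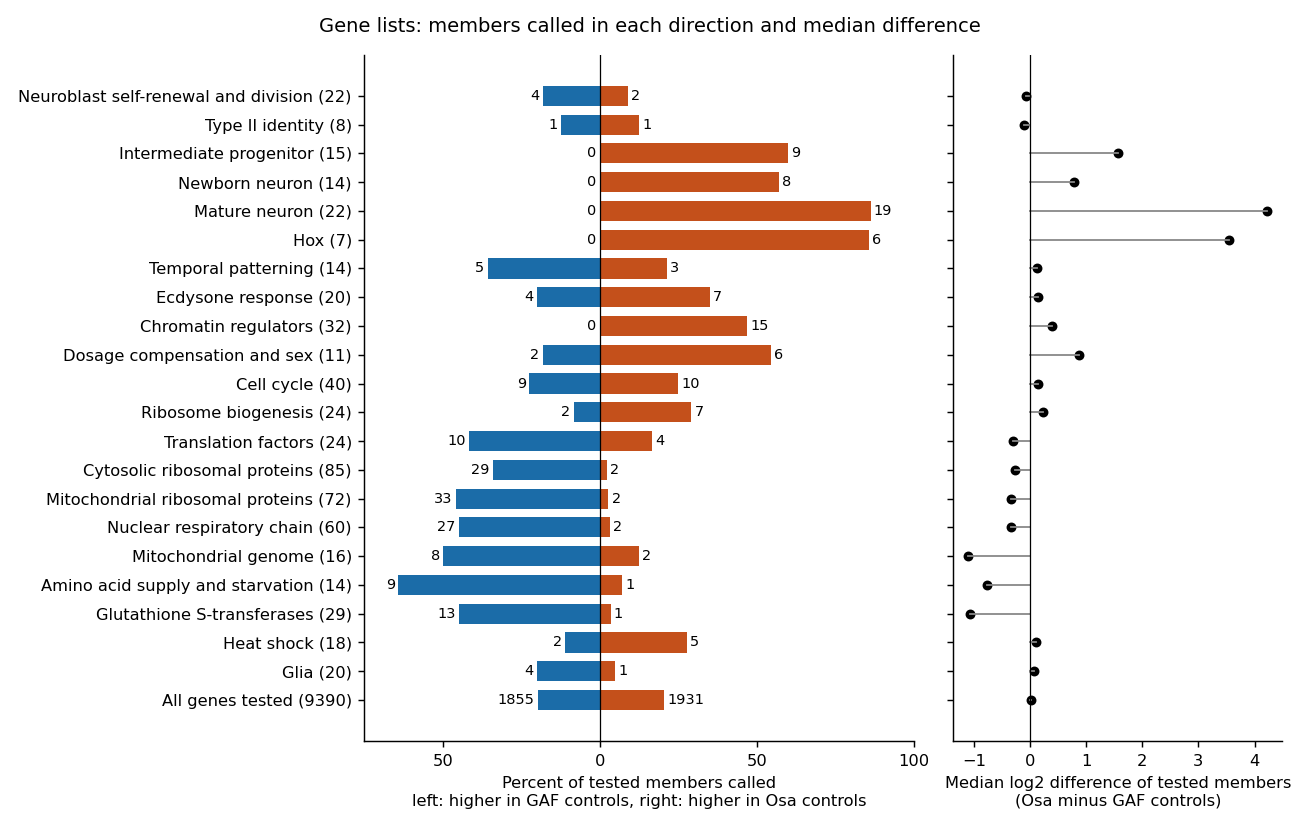
Left, percent of the tested members of each gene list called higher in the GAF controls (bars to the left) or in the Osa controls (bars to the right), with the number of genes at each bar and the number tested in brackets; right, the median log2 difference of the tested members. Of the lists drawn, mature neuron and Hox genes have the highest medians, 4.23 and 3.54, and mitochondrial genome and glutathione S-transferase genes the lowest, −1.11 and −1.08; the bars of ribosomal protein genes change sides with library size alone.

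Temporal patterning genes were called in both directions. Imp (chromosome X from 10787869 to 10824277 on the minus strand), the RNA-binding protein of young neuroblasts, was at 4635, 6622 and 4876 CPM in the GAF controls and at 1699 and 1401 CPM in the Osa controls, 3.47-fold higher in the GAF controls (−1.79 ± 0.18, edgeR adjusted p = 9.22e-05). The lowest GAF library was well above the highest Osa library, and the call held under every alternative tried. Lin-28, a further early RNA-binding protein gene, was at 10.8, 17.5 and 12.3 CPM in the GAF controls and at 2.58 and 4.5 CPM in the Osa controls (−1.93 ± 0.32, edgeR adjusted p = 0.00152). Chinmo, an early transcription factor gene, was lower in the Osa controls by a smaller amount (−0.42 ± 0.13, edgeR adjusted p = 0.0244), within the limit for a constant gene. Syp, the late partner of Imp, was at 7346, 6027 and 5686 CPM in the GAF controls and at 3754 and 4859 CPM in the Osa controls, also slightly lower in the Osa controls (−0.56 ± 0.17, edgeR adjusted p = 0.0238). Kr, an early factor of embryonic neuroblasts, was higher in the Osa controls, at 0.208, 0.294 and 0.476 CPM in the GAF controls and at 9.96 and 6.21 CPM in the Osa controls (4.61 ± 0.47, edgeR adjusted p = 7.87e-05). The calls of chinmo and Syp were lost with library size alone, in the fit of all 14 libraries and without Osa control 1. Of 14 temporal genes in all, 3 were called higher in the Osa controls and 5 higher in the GAF controls, 6 were constant and the median was 0.12, but with library size alone the counts were 5 and 2, in the fit of all 14 libraries 4 and 1, without GAF control 2 they were 4 and 3, without Osa control 1 they were 3 and 2 and without Osa control 2 they were 3 and 3.

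The ecdysone receptor and some of its targets went the other way. EcR was at 14.1, 16.2 and 16.1 CPM in the GAF controls and at 47.9 and 51.8 CPM in the Osa controls (1.69 ± 0.17, edgeR adjusted p = 6.12e-05), with no overlap between the sets. Its early targets Eip74EF (4.13 ± 0.50, edgeR adjusted p = 0.000818) and Eip75B (1.12 ± 0.14, edgeR adjusted p = 0.000231) were higher in the Osa controls, the former at 2.24, 0.631 and 1.93 CPM in the GAF controls and at 19.2 and 36.3 CPM in the Osa controls. The nuclear receptor gene Hr38 differed by 2.68. The list member br went the other way, at 560, 400 and 399 CPM in the GAF controls and at 318 and 289 CPM in the Osa controls. It was called (−0.58 ± 0.17, edgeR adjusted p = 0.0217), within the limit for a constant gene. The list was not uniform: of 20 ecdysone response genes 7 were called higher in the Osa controls and 4 higher in the GAF controls, with a median of 0.14 that changed sign without either Osa library. The counts were then 5 and 1 without Osa control 1 and 6 and 1 without Osa control 2, and 6 and 1 in the fit of all 14 libraries. Hr4, a nuclear receptor gene of the same cascade, was at 241, 44.9 and 55.4 CPM in the GAF controls and at 7.55 and 32.2 CPM in the Osa controls, with GAF control 1 far above the other GAF libraries (−2.51 ± 1.21, edgeR adjusted p = 0.242).

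Many of the most abundant transcripts were shared by both sets. The 5 highest by CPM were, in the same order in each set, lncRNA:cherub, the mitochondrial large ribosomal RNA lrRNA, lncRNA:CR34335, lncRNA:CR33938 and eEF1alpha1. Of the 100 highest in each set, 87 were shared by CPM and 89 by CPM per kilobase of exon. These 100 took 42.2% to 45.6% of the counts of a GAF library and 38.3% to 38.5% of those of an Osa library. Of the 113 transcripts in either list 63 were called and 78 were constant, and 14 were both called and at least 2-fold apart.

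Cherub (chromosome 3R from 11247631 to 11256123 on the minus strand) is a long noncoding RNA of neuroblasts that is passed to 1 daughter at division. It was at 101685, 93622 and 91773 CPM in the GAF controls and at 57779 and 62843 CPM in the Osa controls, or 8.9%, 8.64% and 8.57% of the counts of the GAF libraries and 6.55% and 7.33% of those of the Osa libraries. The sets did not overlap, and the gene was both called and constant (−0.67 ± 0.15, edgeR adjusted p = 0.00594). Its call was lost with library size alone (−0.33) or without either Osa library. The second transcript, lrRNA, was at 36602, 43706 and 53309 CPM in the GAF controls and at 41486 and 38589 CPM in the Osa controls, without separation of the sets, and was constant (−0.15, interval −0.55 to 0.24). The short noncoding RNA CR34335 was at 34772, 19552 and 19964 CPM in the GAF controls and at 15567 and 10169.8 CPM in the Osa controls (−0.94 ± 0.29, edgeR adjusted p = 0.0358), a call lost in 6 alternatives, among them library size alone, the length correction and without Osa control 2. CR33938 was at 30056, 11222 and 15570.1 CPM in the GAF controls and at 7241 and 9427 CPM in the Osa controls and was not called (−1.19 ± 0.42, edgeR adjusted p = 0.0811). GAF control 1 stood apart in both short RNAs, and without it the call of CR33938 was made (−0.65). The translation elongation factor gene eEF1alpha1 was constant (−0.36, interval −0.68 to −0.04).

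Per kilobase, the order was different. CR34335 was highest in both sets, at 96320.5, 54161 and 55303 CPM per kilobase in the GAF controls and 43123 and 28171 in the Osa controls. Cherub had rank 5 in both sets by this measure. Below these, several transcripts changed rank by many places. By CPM, Imp went from rank 16 in the GAF controls to 63 in the Osa controls, the mitochondrial transcripts COX1 from 6 to 30 and CYTB from 9 to 46, and the small heat shock gene Hsp26 from 13 to 47. In the other direction betaTub56D, a tubulin gene, went from 28 to 6, the chaperone gene Hsp83 from 39 to 9 and alphaTub84B from 53 to 10. In level these last were closer: betaTub56D was constant (0.40, interval 0.04 to 0.75), and Hsp83 was constant although called (0.44, interval 0.11 to 0.78).

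**Figure D4:**
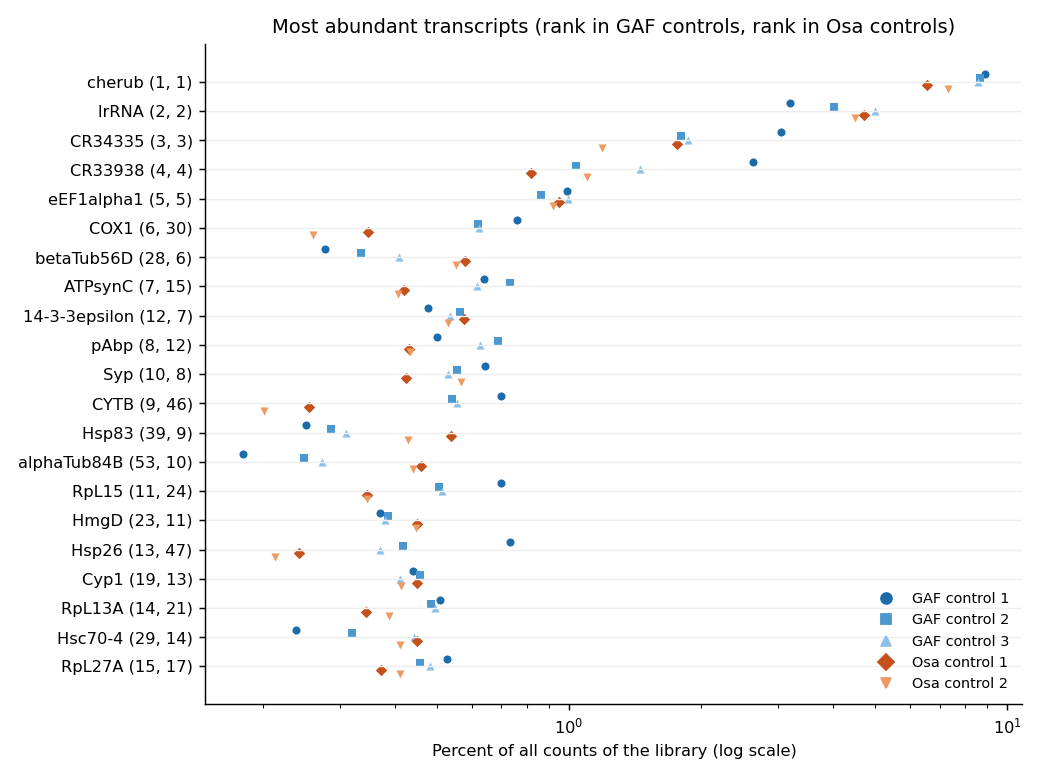
Percent of all counts of a library (x axis, log scale) taken by each of the most abundant transcripts of either set, with 1 point per library and the ranks by CPM in the GAF and the Osa controls in brackets. The noncoding RNA cherub leads in all 5 libraries, from 6.55% to 8.9%, and COX1, CYTB and Hsp26 have every GAF library above both Osa libraries.

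Constancy went with abundance. Of 136 genes over 1000 CPM 72.1% were constant, against 59.7% of those between 10 and 100 CPM and 10.2% of those between 1 and 10 CPM. At lower levels fewer intervals are narrow enough, so these shares describe precision as well as stability. Highly expressed genes called were nearly all higher in the GAF controls, 68 against 5 over 1000 CPM. Between 1 and 10 CPM the direction was reversed, with 689 higher in the Osa controls and 189 higher in the GAF controls. These counts were made with TMM factors. With library size alone the median of all genes moved by 0.34 towards the Osa controls, and the counts by level were not repeated on that scale. Among the 12 constant genes with the narrowest intervals were the amino acid transporter chain CD98hc (−0.08, interval −0.36 to 0.19), the ubiquitin-conjugating variant gene Uev1A (−0.32, interval −0.59 to −0.05) and the ubiquitin-conjugating enzyme gene ben (−0.23, interval −0.51 to 0.04). The constitutive chaperone Hsc70-4 (0.04, interval −0.43 to 0.52) and the cyclophilin gene Cyp1 (−0.35) were among the abundant constant genes.

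Differences also went with transcript length. In the shortest of 5 equal groups, with 55 to 1077 bases of exon, the median was −0.34, with 129 genes called higher in the Osa controls and 550 higher in the GAF controls. In the longest, with 4171 to 71820 bases, it was 0.33, with 620 and 161. The groups between rose in steps, at −0.18, 0.04 and 0.28. A loess correction for exonic length, chosen after these values were seen, left 3374 calls, of which 53.4% were higher in the Osa controls. With it the median of the nuclear oxidative phosphorylation genes went from −0.35 to −0.02.

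**Figure D5:**
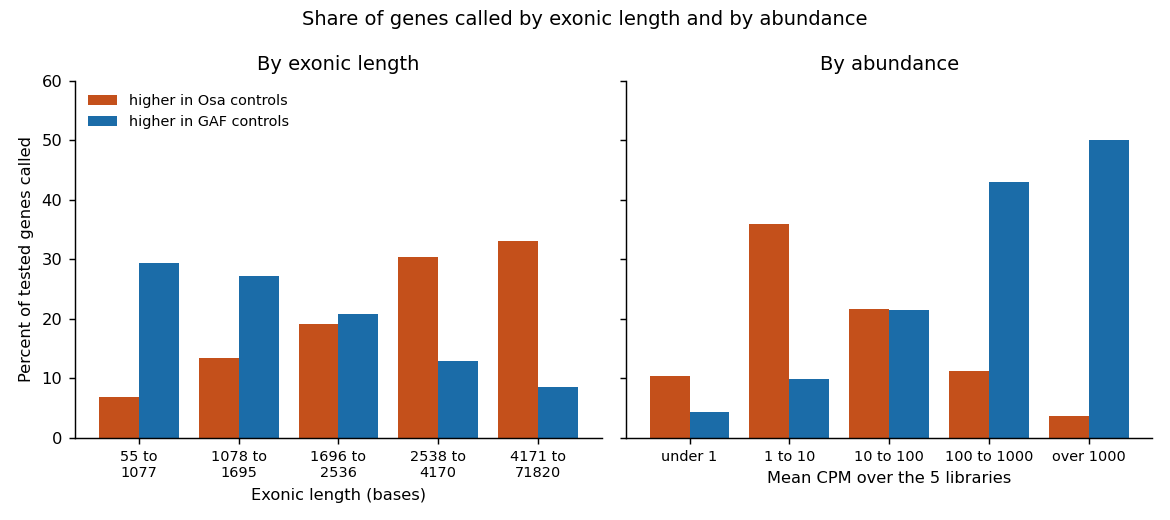
Percent of tested genes called higher in the Osa controls and in the GAF controls (y axis, 1 bar for each direction) in 5 equal groups by exonic length in bases (left) and in groups by mean CPM over the 5 libraries (right). Calls towards the GAF controls go from 550 in the shortest group to 161 in the longest, and calls towards the Osa controls from 129 to 620.

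Genes of the protein synthesis machinery were mostly constant, and the ribosomal protein lists had a small shift that depended on scaling and length. Of all genes over 10 CPM 59.7% to 72.1% were constant, depending on the level. Called were 36.5% of the cytosolic and 48.6% of the mitochondrial ribosomal protein genes, against 40.3% of all genes. For translation factors it was 58.3%, with larger differences both ways, as in eEF1alpha2 (4.92 ± 0.37, edgeR adjusted p = 0.000204) and eIF4E1 (−1.15 ± 0.13, edgeR adjusted p = 0.000182). Of 85 cytosolic ribosomal protein genes 75 were constant, while 2 were called higher in the Osa controls and 29 higher in the GAF controls, with a median of −0.28. With library size alone 10 and 4 were called, after the length correction 9 and 7 with a median of 0.06, without Osa control 1 it was 0 and 4, without Osa control 2 it was 0 and 8 and in the fit of all 14 libraries 0 and 16. RpL15, of the large subunit, was at 7988, 5484 and 5494 CPM in the GAF controls and at 3063 and 2963 CPM in the Osa controls (−1.07 ± 0.18, edgeR adjusted p = 0.00159). The small subunit gene sta was called the other way (0.51 ± 0.12, edgeR adjusted p = 0.00838), but not without either Osa library. The 72 mitochondrial ribosomal protein genes had 61 constant members, 2 called higher in the Osa controls and 33 higher in the GAF controls, turning to 9 and 7 with library size alone and to 10 and 5, with a median of −0.02, after the length correction. Without Osa control 1 it was 0 and 8, without Osa control 2 it was 1 and 8, without GAF control 2 it was 2 and 20 and in the fit of all 14 libraries 2 and 9. Of 24 translation factor genes 15 were constant and 4 and 10 were called, or 7 and 6 with library size alone, 2 and 6 without Osa control 1, 3 and 5 without Osa control 2 and 3 and 6 in the fit of all 14 libraries. Ribosome biogenesis genes were constant in 19 of 24 cases, with 7 called higher in the Osa controls and 2 higher in the GAF controls, 16 and 1 with library size alone, 3 and 1 without Osa control 1, 4 and 1 without Osa control 2 and 4 and 0 in the fit of all 14 libraries.

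Respiratory genes of the nucleus and of the mitochondrial genome differed in size of change. Of 60 nuclear oxidative phosphorylation genes 49 were constant, and 2 were called higher in the Osa controls and 27 higher in the GAF controls (8 and 9 with library size alone, 5 and 8 after the length correction). The share called was 48.3%, against 40.3% of all genes, and of all genes over 10 CPM 59.7% to 72.1% were constant, depending on the level. Without Osa control 1 it was 0 and 9, without Osa control 2 it was 1 and 9, without GAF control 2 it was 2 and 17 and in the fit of all 14 libraries 1 and 9. The ATP synthase ring subunit gene ATPsynC was at 7307, 7953 and 6602 CPM in the GAF controls and at 3711 and 3491 CPM in the Osa controls (−1.02 ± 0.14, edgeR adjusted p = 0.000494). The ADP/ATP carrier gene sesB was lower in the Osa controls as well (−1.01 ± 0.15, edgeR adjusted p = 0.000762). Of 16 mitochondrial genome transcripts 2 were constant, 2 were called higher in the Osa controls and 8 higher in the GAF controls, with a median of −1.11. The cytochrome oxidase subunit COX1 was at 8707, 6721 and 6652 CPM in the GAF controls and at 3066 and 2237 CPM in the Osa controls (−1.47 ± 0.18, edgeR adjusted p = 0.000295). CYTB, of complex III, was at 7969, 5847 and 5932 CPM in the GAF controls and at 2248 and 1733 CPM in the Osa controls (−1.73 ± 0.18, edgeR adjusted p = 0.000121). The small ribosomal RNA srRNA was higher in the Osa controls (1.67 ± 0.22, edgeR adjusted p = 0.000401), so the transcripts of this genome did not move as a block. In the fit of all 14 libraries 3 of the 16 were called, and COX1 and COX2 (−1.20) were among them.

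The nutrient and growth genes called were mostly higher in the GAF controls. Of 14 amino acid and starvation genes tested, 1 was called higher in the Osa controls and 9 higher in the GAF controls, with a median of −0.77. Without Osa control 1 it was 1 and 5, without Osa control 2 it was 0 and 6 and in the fit of all 14 libraries 1 and 5. The leucine transporter gene JhI-21 was at 1379, 1494 and 1333 CPM in the GAF controls and at 406 and 480 CPM in the Osa controls (−1.66 ± 0.14, edgeR adjusted p = 2.67e-05). The amino acid transporter genes mnd (−1.23 ± 0.17, edgeR adjusted p = 0.00049) and path (−0.96 ± 0.13, edgeR adjusted p = 0.000401) followed. Thor, the translation repressor 4E-BP, was at 1028, 639 and 623 CPM in the GAF controls and at 200.5 and 345 CPM in the Osa controls (−1.49 ± 0.30, edgeR adjusted p = 0.00863). The lipase gene bmm was at 50.1, 31.2 and 31.5 CPM in the GAF controls and at 10.7 and 11.9 CPM in the Osa controls (−1.73 ± 0.23, edgeR adjusted p = 0.000512). Both are known FoxO targets that rise in starved flies, while the transporters bring amino acids in. The insulin receptor gene InR was lower in the Osa controls too (−1.0 ± 0.22, edgeR adjusted p = 0.00759), without a call when Osa control 1 was left out.

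Cell cycle genes were called in both directions, at 47.5% against 40.3% of all genes. Of 40 tested, 28 were constant (of all genes over 10 CPM, 59.7% to 72.1% were, depending on the level). Called were 10 higher in the Osa controls and 9 higher in the GAF controls, with a median of 0.14. With library size alone it was 21 and 6, in the fit of all 14 libraries 4 and 8, without Osa control 1 it was 3 and 7 and without Osa control 2 it was 1 and 6. Cyclin D (CycD) was at 103, 80.9 and 80.8 CPM in the GAF controls and at 44.5 and 36.7 CPM in the Osa controls (−1.12 ± 0.17, edgeR adjusted p = 0.000784). Its kinase gene Cdk4 was at 75.8, 83.3 and 71.8 CPM in the GAF controls and at 29.8 and 28.3 CPM in the Osa controls (−1.41 ± 0.15, edgeR adjusted p = 0.00011). The sets did not overlap in either member of this growth-linked cyclin complex. The mitotic kinase gene Cdk1 was constant (−0.15, interval −0.45 to 0.15).

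Detoxification and heat shock genes were uneven. Called were 48.3% of the glutathione S-transferase genes and 38.9% of the heat shock genes, against 40.3% of all genes. Of 29 glutathione S-transferase genes 13 were called higher in the GAF controls and 1 higher in the Osa controls, with a median of −1.08. Without Osa control 1 it was 5 and 0, without Osa control 2 it was 8 and 1 and in the fit of all 14 libraries 8 and 1. GstD1 was constant (−0.11, interval −0.43 to 0.21). Reads of neighbouring GstE copies may be split between them. Of 18 heat shock genes 5 were called higher in the Osa controls and 2 higher in the GAF controls, with a median of 0.11, and without GAF control 1 the counts were 11 and 2, without GAF control 2 they were 2 and 2 and without Osa control 1 they were 1 and 1. With library size alone they were 8 and 2, and with the replicate block 3 and 4. Hsp26 was at 8377, 4543 and 3961 CPM in the GAF controls and at 2135 and 1822 CPM in the Osa controls (−1.51 ± 0.31, edgeR adjusted p = 0.0102), with GAF control 1 highest. Its call was lost without either Osa library. The same library was highest for Hsp68, at 534, 167 and 201 CPM in the GAF controls and at 249 and 235 CPM in the Osa controls, and the gene was not called (−0.31 ± 0.59, edgeR adjusted p = 0.724). Without that library it was called in the opposite direction, at 0.43. The co-chaperone gene DnaJ-1 was at 499, 189.7 and 172 CPM in the GAF controls and at 181 and 157 CPM in the Osa controls (−0.76 ± 0.55, edgeR adjusted p = 0.349). Hsp70Bb, a member of a near-identical gene family, was at 421, 332 and 393 CPM in the GAF controls and at 85.6 and 79.5 CPM in the Osa controls (−2.21 ± 0.14, edgeR adjusted p = 9.19e-06). Its copy Hsp70Ba was called the other way, at 18.6, 11.2 and 14.7 CPM in the GAF controls and at 46.2 and 26.3 CPM in the Osa controls (1.29 ± 0.28, edgeR adjusted p = 0.00527), a call lost without Osa control 1. How reads shared by these copies were assigned was not given in the sources used here, so their single values are uncertain.

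GAF control 1 was also highest for 2 Notch target genes, picked for this pattern after their values were seen. E(spl)m8-HLH, a repressor gene switched on by Notch, was at 94.6, 26.3 and 21.2 CPM in the GAF controls and at 17.4 and 17.5 CPM in the Osa controls (−1.44 ± 0.78, edgeR adjusted p = 0.244). Its neighbour E(spl)mgamma-HLH was at 478, 258 and 191 CPM in the GAF controls and at 137 and 141 CPM in the Osa controls (−1.15 ± 0.38, edgeR adjusted p = 0.0621). In both, GAF control 1 was highest and both Osa libraries lowest, and neither was called. E(spl)m5-HLH, of the same cluster, was called the other way at a level below 1 CPM in every library, at 0.052, 0 and 0 CPM in the GAF controls and at 0.666 and 0.704 CPM in the Osa controls (5.19 ± 1.5, edgeR adjusted p = 0.00897), a call lost without either Osa library. Of 27 Notch pathway genes 2 were called higher in the Osa controls, 3 higher in the GAF controls and 9 were constant. Without GAF control 1 the counts were 11 and 3, with library size alone 9 and 1, without GAF control 2 they were 1 and 1, without either Osa library 0 and 1 and in the fit of all 14 libraries 2 and 0.

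Among chromatin genes, which include the 3 genes that the series perturbed, the called ones were higher in the Osa controls. Of 32 tested, 19 were constant, no larger a share than among all genes over 10 CPM (59.7% to 72.1%, depending on the level). Called were 15 (46.9%, against 40.3% of all genes), all of them higher in the Osa controls, and the list had a median of 0.38. After the length correction 10 were called higher in the Osa controls and 1 higher in the GAF controls, without either Osa library 8 were called, in the fit of all 14 libraries 7 and with library size alone 24, all of them higher in the Osa controls. The SWI/SNF subunit gene osa (chromosome 3R from 17687818 to 17718350 on the minus strand) was at 109.7, 78.7 and 95.5 CPM in the GAF controls and at 117 and 117 CPM in the Osa controls, constant and not called (0.30 ± 0.16, edgeR adjusted p = 0.158), although it was called without GAF control 1 and with library size alone. HDAC1 (chromosome 3L from 4626734 to 4629467 on the plus strand) was at 113, 155 and 148 CPM in the GAF controls and at 231 and 216 CPM in the Osa controls (0.69 ± 0.16, edgeR adjusted p = 0.00634), a call lost without Osa control 1. GAF itself is encoded by Trl (chromosome 3L from 14747929 to 14761049 on the minus strand), which was at 6.94, 6.06 and 5.17 CPM in the GAF controls and at 8.21 and 13.5 CPM in the Osa controls (0.85 ± 0.29, edgeR adjusted p = 0.0394). Other genes overlap 77.8% of the exonic bases of Trl, and its call was lost under several alternatives, among them the length correction. The remodelling ATPase genes Iswi (0.94 ± 0.15, edgeR adjusted p = 0.000997) and Mi-2 (1.12 ± 0.17, edgeR adjusted p = 0.000585) were higher in the Osa controls.

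The dosage compensation genes set the 2 Osa libraries apart from each other. The noncoding RNA lncRNA:roX2 (chromosome X from 11579065 to 11580432 on the plus strand), which guides the male X chromosome complex, was at 0.468, 0.0841 and 0.0227 CPM in the GAF controls and at 0.278 and 96.4 CPM in the Osa controls. Osa control 2 was high and the other 4 libraries were near 0, and the gene was not called (8.04 ± 3.16, edgeR adjusted p = 0.127). The complex's limiting subunit gene msl-2 was at 6.19, 4.75 and 5.08 CPM in the GAF controls and at 9.44 and 24.2 CPM in the Osa controls (1.66 ± 0.36, edgeR adjusted p = 0.00548), again highest in Osa control 2. Its repressor in females, Sxl, was at 393, 432 and 418 CPM in the GAF controls and at 311 and 207 CPM in the Osa controls (−0.68 ± 0.17, edgeR adjusted p = 0.0112), lowest in Osa control 2. Without that library msl-2 and Sxl lost their calls. Of 11 dosage and sex genes 6 were called higher in the Osa controls and 2 higher in the GAF controls, and without Osa control 2 it was 3, all higher in the Osa controls. The related RNA lncRNA:roX1 was at 527, 753 and 682 CPM in the GAF controls and at 793 and 1076 CPM in the Osa controls, again highest in Osa control 2, and was constant although called (0.52, interval 0.10 to 0.93, edgeR adjusted p = 0.0469), a call lost in 5 alternatives besides the minimum fold, among them the length correction and without Osa control 2. Neither the sex nor the number of the animals behind a library is given in the labels. Of all 1596 genes tested on the X chromosome 38.7% were called, near the 40.3% of all genes, with a median of 0.08.

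Few genes were present in a whole set and nearly absent from the other. Requiring at least 10 CPM in every library of a set and at most 0.5 CPM in each library of the other, 9 genes were restricted to the Osa controls and 2 to the GAF controls. The 2 were chosen for naming after their values were seen. CG13962 (chromosome 2L from 19813704 to 19814532 on the minus strand) had 7811, 8388 and 6901 counts in the GAF controls and 0 counts in both Osa controls. Against a floor of 3 counts over the Osa set it was at least 4513-fold higher in the GAF controls. The counts were 5995, 5975 and 7772 in the GAF RNAi libraries, 0 in both Osa overexpression libraries, 0 in both HDAC1 controls, and 0 and 2 in the HDAC1 RNAi libraries. It was thus counted in every library of the GAF experiment and nearly absent from the others. The noncoding RNA lncRNA:CR46350 (chromosome 3R from 9283875 to 9284525 on the plus strand) had 475, 666 and 496 counts in the GAF controls and 0 in the Osa controls, at least 317-fold higher. Its counts were 389, 556 and 729 in the GAF RNAi libraries, 0 and 4 in the HDAC1 controls, 114 and 122 in the HDAC1 RNAi libraries, and 74 and 112 in the Osa overexpression libraries.

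The neuropeptide gene AstC was among the 9 genes restricted to the Osa controls. Whamy (chromosome 3R from 9771795 to 9774419 on the minus strand), a WASP-family regulator of actin, had 0, 2 and 4 counts in the GAF controls and was at 22.3 and 19.5 CPM in the Osa controls (8.74 ± 0.65, edgeR adjusted p = 3.01e-06). The tubulin-binding protein gene ringer was at 0.026, 0.168 and 0.317 CPM in the GAF controls and at 17.3 and 10.3 CPM in the Osa controls (6.28 ± 0.61, edgeR adjusted p = 7.56e-05). The others were wry, Ktl, CG1213, CG34354, CG7191 and CR10991. Other genes without a count in a set were at low levels in the other. The Wnt ligand gene wg, with a mean of 1.59 CPM in the Osa controls, was at least 69.1-fold higher there. The cap-binding protein gene eIF4E3, at 4.31, 1.68 and 0.862 CPM in the GAF controls, was at least 57.8-fold higher in that set.

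Among genes with a symbol, the largest differences towards the GAF controls came from genes of diverse roles. The immunoglobulin-domain gene dpr19 was at 190.3, 161 and 148 CPM in the GAF controls and at 15.6 and 14.6 CPM in the Osa controls, 11-fold higher in the GAF controls (−3.46 ± 0.15, edgeR adjusted p = 1.9e-06). The antiviral gene pst was at 11.3, 9.13 and 9.98 CPM in the GAF controls and at 0.5 and 0.654 CPM in the Osa controls (−4.12 ± 0.32, edgeR adjusted p = 2.69e-05). The ARID-domain transcription factor gene retn was at 19.4, 3.01 and 8.21 CPM in the GAF controls and at 0.666 and 0.277 CPM in the Osa controls (−4.44 ± 0.86, edgeR adjusted p = 0.0114). In retn the 3 GAF libraries differed among themselves, with GAF control 1 highest, and the call was lost without either Osa library and by limma-voom. The neuroblast factor gene sna, of the Snail family, was at 308, 295 and 224 CPM in the GAF controls and at 59.9 and 61.7 CPM in the Osa controls (−2.18 ± 0.16, edgeR adjusted p = 1.68e-05). Ant2, an ADP/ATP carrier gene whose span overlaps that of sesB, differed by −2.45, and Ptth, a brain hormone gene, by −2.35.

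The same test was run for the other control sets and within experiments. In edgeR, GAF controls against HDAC1 controls gave 6050 of 10396 genes (58.2%) and Osa controls against HDAC1 controls 5646 of 9825 (57.5%). These tests share control libraries with each other and with the comparison of GAF and Osa controls. Within experiments, 2573 of 9055 genes (28.4%) were called for GAF RNAi and 1929 of 9156 (21.1%) for the libraries labelled Osa overexpression, each against its own controls. For HDAC1 RNAi the count was 10 of 10299 (0.0971%). The groups differ in size, from 2 to 3 libraries, and the differences between these counts were not tested.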

How the data were processed

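RNA-seq was done on type II neural stem cells, and the authors deposited raw counts per gene, whole numbers for 17868 genes in 14 libraries. The submitters' processing notes name the dm6 genome and the tools featureCounts 2.0.3, HISAT2 2.2.1, SAMtools 1.6 and Trim Galore 0.6.10. Which annotation was counted, how multi-mapping reads were handled and whether single reads or pairs were counted was not given in the sources used here. Even numbers made up 61.5% to 69.9% of the counts between 1 and 49, so counts divided by 2 were tried as an alternative. Coordinates and exon overlap came from a BDGP6 annotation, the assembly that dm6 names, which 17809 genes matched.

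Libraries were grouped by their titles. The 3 GAF controls and 2 Osa controls were fitted alone in edgeR 4.0.16 by quasi-likelihood (R 4.3.3, robust, TMM factors 0.8756 to 0.9345 and 1.134 to 1.167), after its expression filter (minimum count of 10, minimum total of 15), with two-sided p adjusted by Benjamini-Hochberg. An exact permutation of 3 against 2 libraries cannot go below 0.2 and was not used. Floors of 3 counts and all intervals cover no more than the spread or counting error of amplified reads without molecular identifiers. Members and the 39 gene lists were chosen with earlier results of these data known, and 7 list entries matched no gene. Named were the 12 largest called differences each way from at least 10 CPM without overlap, the 15 most abundant transcripts of each set, up to 4 called and 2 constant members of a list, and the 12 constant genes with the narrowest intervals. Lineage markers, the perturbed genes and roX RNAs were also included, and list members and restricted genes were added after their values were seen.

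On counts simulated for this comparison (9390 genes), edgeR found 49% of the simulated 2-fold and 78% of the simulated 4-fold differences. It called 127 genes simulated to differ, all in the simulated direction, and wrongly called 16 genes simulated without a difference. The 16 wrong calls are to be read against the 127 right ones, not against all 9390 genes. The simulation gave far fewer calls than the 3786 of the data, and the share of wrong calls among those 3786 was not tested. Of the intervals 95.6% held the true value, and 0 of the 4-fold genes were called constant. Within a set, no 2 libraries were alike within sampling noise (median chi-square per gene 7.52 to 28.8). Alternatives were RLE factors, library size alone, no filter, a mean of at least 5 CPM, 7 controls or all 14 libraries in 1 fit, the replicate number as a block, thinning, DESeq2 1.42.0, limma-voom 3.58.1, a test against a minimum log2 difference of 1 and leaving out each library. A loess correction for exonic length was added after the data were seen, because the planned one for length and GC content was not run. Python 3.11.15 with matplotlib 3.10.9 drew the figures.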

Additional observations from a re-analysis of the deposited data

How the results depend on the processing

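The count of called genes (3786) was 869 (81.8% of them higher in the Osa controls) with a minimum log2 fold change of 1 and 1963 to 4287 with single libraries left out, and stayed within 1.5 times under the other alternatives. The count of constant genes (3790) was 2729 to 4234 with single libraries left out and 659 where the interval had to lie within 0.5. With the replicate number as a block 3655 genes were called and 3278 were constant. Same-numbered libraries did not deviate together (correlations of −0.067 and −0.059). The deviations of 2 Osa libraries from their own mean mirror each other, so these values cannot decide whether the numbers pair libraries. Among the named genes the value of Hsp68, −0.31 and not called, changed sign past the threshold, since it ranged from −0.57 to 0.43 with single libraries left out and was called at 0.43 without GAF control 1. The cause was not tested. Of 97 named genes called, 65 kept the call under every alternative but the minimum fold. The correction for length and GC content was not run. With 2 Osa libraries of 31788351 and 34062172 counts, 0% of genes under 1 CPM could be termed constant.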

Other observations

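The remaining gene lists were mixed. The detoxifying cytochrome P450 genes had 2 of 38 called higher in the Osa controls and 4 higher in the GAF controls, and the UDP-glycosyltransferase genes 2 and 2 of 10. Of 21 cuticle genes 3 and 4 were called, and of 20 histone genes, whose copies share reads, 3 and 1. Proteasome genes were split, with 8 and 7 of 35 called and a median of 0.12, and 18 and 3 with library size alone. Of 13 glycolysis genes 9 were constant and 1 and 2 were called, among them lactate dehydrogenase, Ldh (−1.04 ± 0.18, edgeR adjusted p = 0.0018), and 7 and 2 were called with library size alone. Long noncoding RNAs had 58 and 54 of 478 called, with a median of −0.06. The early stress and activity genes had 2 and 4 of 17 called, and sr, whose mammalian relatives are activity-induced, was at 0.884, 0.337 and 0.59 CPM in the GAF controls and at 20.9 and 15.8 CPM in the Osa controls (4.94 ± 0.37, edgeR adjusted p = 1.56e-05). Without Osa control 1 the counts were 2 and 1 for cytochrome P450 genes, 1 and 1 for UDP-glycosyltransferase genes, 1 and 1 for cuticle genes, 4 and 3 for proteasome genes, 29 and 24 for long noncoding RNAs and 2 and 1 for the early stress genes. Without Osa control 2 they were 2 and 2 for cuticle genes, 0 and 0 for histone genes, 6 and 2 for proteasome genes, 1 and 1 for glycolysis genes, 29 and 23 for long noncoding RNAs and 2 and 2 for the early stress genes, and glycolysis genes had 3 and 3 without GAF control 1. Circadian genes had 1 and 1 of 7 called, immune genes 1 of 6, PGRP-SA (−2.82 ± 0.70, edgeR adjusted p = 0.0135), and transgene marker genes 1 of 2, w (0.54 ± 0.15, edgeR adjusted p = 0.0137). The call of PGRP-SA was lost without GAF control 2 or Osa control 1 and that of w without Osa control 2.

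Lists of other tissues were small. Of 4 hemocyte genes edgeR called 0, as did DESeq2 and limma-voom, and 1 had an unadjusted p under 0.05, while 1 was called in each of 5 alternatives, among them library size alone and without GAF control 1. Germline genes had 2 and 3 of 6 called, among them gcl (−1.14 ± 0.18, edgeR adjusted p = 0.00107), tracheal genes 1 and 2 of 6 and fat body genes 2 of 3, both higher in the GAF controls. Without either Osa library and with library size alone 0 fat body genes were called, without Osa control 1 germline genes had 0 and 2, and without Osa control 2 tracheal genes had 0 and 1. Of 4 muscle genes Act57B was called, at 0, 0.126 and 0.0454 CPM in the GAF controls and at 7.13 and 8.58 CPM in the Osa controls (6.96 ± 0.76, edgeR adjusted p = 7.46e-05).

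Some genes differed widely within a set. Among genes reaching 10 CPM in a library, 15 of 5711 differed at least 8-fold within the GAF controls, with 6, 3 and 6 highest in GAF control 1, 2 and 3. The odorant receptor gene Or42a was at 0, 164 and 0.0454 CPM in the GAF controls and at 0.0555 and 0.553 CPM in the Osa controls. CG6870 was at 0.052, 0 and 38.7 CPM in the GAF controls, and below 1 CPM in the Osa controls. In the Osa controls 2 of 5993 genes differed this much, lncRNA:roX2 and CG34236, the latter at 11 and 0.101 CPM. These genes were named after their values were seen.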
